A study of Saccharomyces cerevisiae and Schizosaccharomyces pombe with 8 samples.

Results

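The comparison described here sets wild-type budding yeast (Saccharomyces cerevisiae) grown in minimal medium against the same genotype grown in rich medium. It uses 4 of the 8 libraries of the series, 2 for each medium, chosen by their labelled species, genotype and medium. The remaining 4 libraries are from fission yeast and were not used. Each library counts reads at the 3′ ends of polyadenylated RNA. The labels give neither the strain, its mating type, the recipes of the media nor the growth phase, and nothing says that the replicates came from separate cultures, so p-values measure only the spread between these libraries, which may be technical.

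Yeast in rich medium takes up amino acids, vitamins and other building blocks, whereas in minimal medium it has to make them. The activator Gcn4 turns on many amino acid synthesis genes, Zap1 turns on genes that bring in zinc when it is scarce, and Pho4 turns on genes that bring in and release phosphate. A polyadenylated 3′ end is made when the transcript is cut and a tail of adenines is added, and a gene can have several such cleavage sites. Budding yeast also ends short or noncoding transcripts, among them those of snoRNA genes, by the Nrd1, Nab3 and Sen1 pathway, whose products are mostly trimmed or degraded in the nucleus.

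Minimal medium replicates 1 and 2 had 1174191 and 1253021 reads, and those of rich medium 2057269 and 1558011. A gene's level is its reads on the coding strand, from the start codon to 500 nt past the stop codon, in counts per 1000000 reads (CPM) after TMM scaling. Across 3881 genes, Pearson's r of log2 levels was 0.985 between the minimal medium replicates, 0.976 between the rich medium replicates and 0.909 to 0.918 across media. Each r is taken over genes, and genes do not stand in for replicates. YHB1, for the nitric oxide dioxygenase flavohemoglobin, held 11.2% to 13.0% of the nuclear reads of every library. Of 7 a-specific genes 6 could be tested and of 4 alpha-specific genes 1. STE2, the receptor for alpha-factor, stood at 1023 and 1027 CPM in minimal and 1368 and 1270.0 CPM in rich medium. STE3, the receptor for a-factor, lay between 0 and 3.98 CPM in the 4 libraries.

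Of 6431 annotated nuclear genes, 4650 passed the filter on low counts and were tested, and 427 had no read. In minimal medium 824 genes were higher, 17.7% of those tested, and 731 were lower, 15.7%. The call is an adjusted p under 0.05 from edgeR's quasi-likelihood test, and every log2 change below is minimal minus rich medium with its standard error (SE) from that fit. An unadjusted p under 0.05 was reached by 2005 genes, and the median log2 change of all tested genes was -0.01. A change of over 2-fold was fitted for 358 of the higher and 316 of the lower genes, and one of over 8-fold for 6 and 6. The levels of the higher genes added up to 33.9% and 33.0% of each minimal medium library and to 17.0% and 17.9% of each rich medium library. Those of the lower genes added up to 14.5% and 14.6% against 26.5% and 24.1%. DESeq2 called 469 genes higher and 344 lower. With minimal medium replicate 1 left out, 410 were higher and 276 lower, and with replicate 2 left out, 432 and 292.

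**Figure D1:**
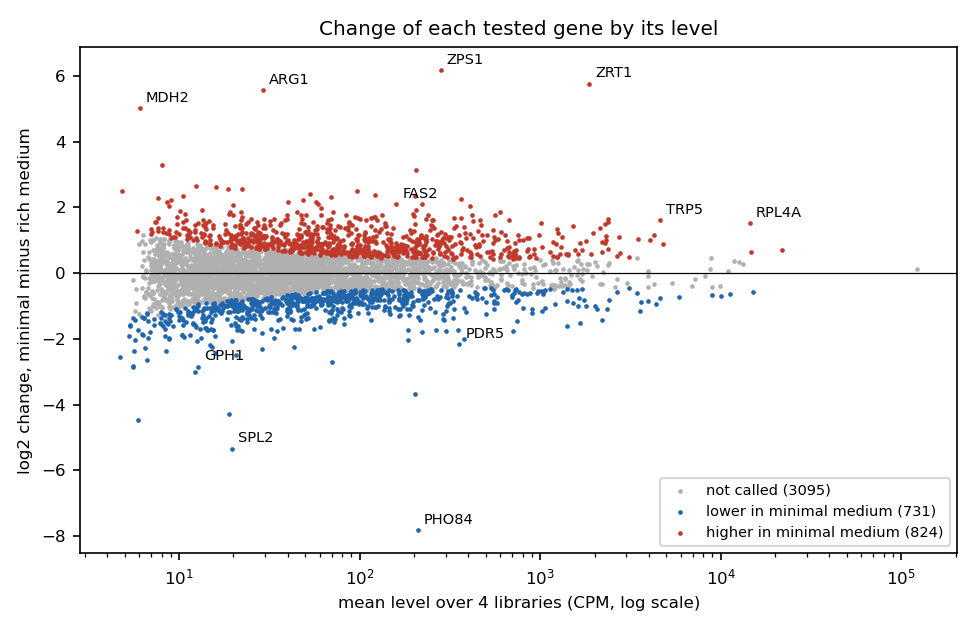
Each point is one of 4650 tested genes, with its mean level over the 4 libraries (CPM, log scale) on the x axis and its log2 change, minimal minus rich medium, on the y axis. Red points are the 824 genes called higher in minimal medium and blue points the 731 called lower. Most called genes changed by less than 4-fold, and a few, such as ZRT1 (5.77) and PHO84 (-7.83), lie far from the rest.

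Calls were more frequent among the more abundant genes. Of the 1163 genes with the lowest mean levels 7.31% were called higher and 11.2% lower, and of the 1163 with the highest levels 30.3% and 21.2%. The size of the change went the other way. The median absolute log2 change of called genes was 1.35 at the lowest and 0.79 at the highest levels. A small share of the genes carried much of the shift in reads. The 12 genes with the largest rise in CPM made up 36.0% of the summed gain of all higher genes, and the 12 with the largest fall made up 35.8% of the summed loss. Both groups hold genes for ribosomal proteins.

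RPL4A, for a protein of the large ribosomal subunit (chromosome II, 300166 to 301254), stood at 21515 and 21439 CPM in minimal medium and at 6021 and 8833 CPM in rich medium. Both minimal medium libraries lay above both rich medium libraries, and the log2 change was 1.53 (SE 0.21, adjusted p = 2.55e-06). RPS2 and RPL6A, for proteins of the small and the large subunit, rose by less, with log2 changes of 0.71 and 0.63, and neither was called when either minimal medium library was left out. TRP5, for tryptophan synthase (chromosome VII, 446412 to 448535), stood at 7095 and 6798 CPM against 1915 and 2599 CPM, a log2 change of 1.62 (SE 0.19, adjusted p = 2.60e-07). Enzymes of central carbon metabolism were also in this group. ADH1, the main fermentative alcohol dehydrogenase, stood at 3778 and 2988 CPM against 1227 and 1192 CPM, and TDH2, a glyceraldehyde-3-phosphate dehydrogenase, rose by 1.17. The mannoproteins of the cell wall CCW12 and CWP2 rose by 1.56 and 1.03, and the cyclophilin CPR1 by 1.02. The other members were ZRT1, described below, CIR2 (1.63) and YLR179C (0.89).

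Of the 12 largest falls 7 were those of ribosomal protein genes other than the fusion gene RPS31. RPS21A, for a protein of the small subunit (chromosome XI, 551657 to 552242), stood at 2297 and 2104 CPM in minimal medium and 5167 and 4641 CPM in rich medium, a log2 change of -1.16 (SE 0.18, adjusted p = 1.46e-05). RPL29 and RPS22B fell by 0.95 and 0.87, and RPL23B, RPL24A, RPL10 and RPL39 by 0.64 to 0.72. The calls on these last 4 and on RPS31 were lost when either minimal medium library was left out. SUI1, for the translation initiation factor eIF1, stood at 11941 and 12375 CPM against 21662 and 14504 CPM. Its groups do not overlap, but the rich medium libraries differ by more than the minimal medium libraries, and its log2 change of -0.57 (adjusted p = 0.0312) was not called when either minimal medium library or rich medium replicate 1 was left out. The other members were RPS31, for ubiquitin fused to a ribosomal protein (-0.74), YRB1, for a Ran-binding protein of nuclear transport (-0.84), KTD1 (-1.10) and YBR096W (-1.43). Reads of near-identical gene copies may be split between them, and their placement by the aligner is not given in the sources used here.

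Amino acid synthesis was the largest block of lists that rose. Of 10 tested arginine synthesis genes 9 rose, with a median log2 change of 2.17. ARG1, for argininosuccinate synthetase, stood at 62.0 and 52.0 CPM in minimal medium and 1.49 and 0.638 CPM in rich medium, a log2 change of 5.57 (SE 0.44, adjusted p = 3.84e-10). ARG3, for ornithine carbamoyltransferase, stood at 15.3 and 13.6 CPM against 0.497 and 2.55 CPM. The rich medium levels of both genes rest on few reads. ARG2, for the acetylglutamate synthase that starts the pathway, had 18.9 and 16.2 CPM against 12.9 and 16.6 CPM, and was the 1 tested member that was not called.

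In the histidine list 4 of 6 tested genes rose (median 0.95), led by HIS4 (97.1 and 91.2 CPM against 18.9 and 23.0 CPM) and HIS3. In the lysine list 5 of 8 rose (median 0.80), led by LYS20 and LYS21, both homocitrate synthases, with log2 changes of 1.80 and 1.62. Without minimal medium replicate 1 the lysine count was 3. Of 11 branched-chain genes 7 rose and 1 fell (median 1.01). ILV3, for dihydroxyacid dehydratase, rose by 1.61 and ILV1, for threonine deaminase, by 1.56. BAT2, a branched-chain aminotransferase of the cytosol, was lower, with 5.39 and 9.38 CPM against 13.4 and 20.4 CPM. The call on BAT2 (adjusted p = 0.0266) was lost with DESeq2 and when minimal medium replicate 1 or rich medium replicate 2 was left out. Of 12 aromatic genes 8 rose (median 0.98), led by TRP4 (2.18) and TRP5.

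Of 8 aspartate, asparagine and threonine genes 6 rose (median 0.83), and 3 without minimal medium replicate 2. THR1, for homoserine kinase, rose by 1.98 and HOM3, for aspartate kinase, by 1.62. Of 14 serine, glycine and one-carbon genes 5 rose (median 0.34), led by ADE3 (1.47), for a folate enzyme with several activities, and SHM1 (1.32), for mitochondrial serine hydroxymethyltransferase. Of 8 glutamate, glutamine and proline genes 4 rose and 1 fell. GDH1, the NADP-dependent glutamate dehydrogenase that fixes ammonium, stood at 213.9 and 188.4 CPM against 79.6 and 69.5 CPM. Its paralog GDH3 went the other way, at 36.9 and 33.3 CPM against 70.1 and 55.5 CPM. With DESeq2, and without either minimal medium library, 2 genes of this list were called higher and 0 lower. The call on GDH3 (adjusted p = 0.00784) was kept in 6 of 10 alternative settings.

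**Figure D2:**
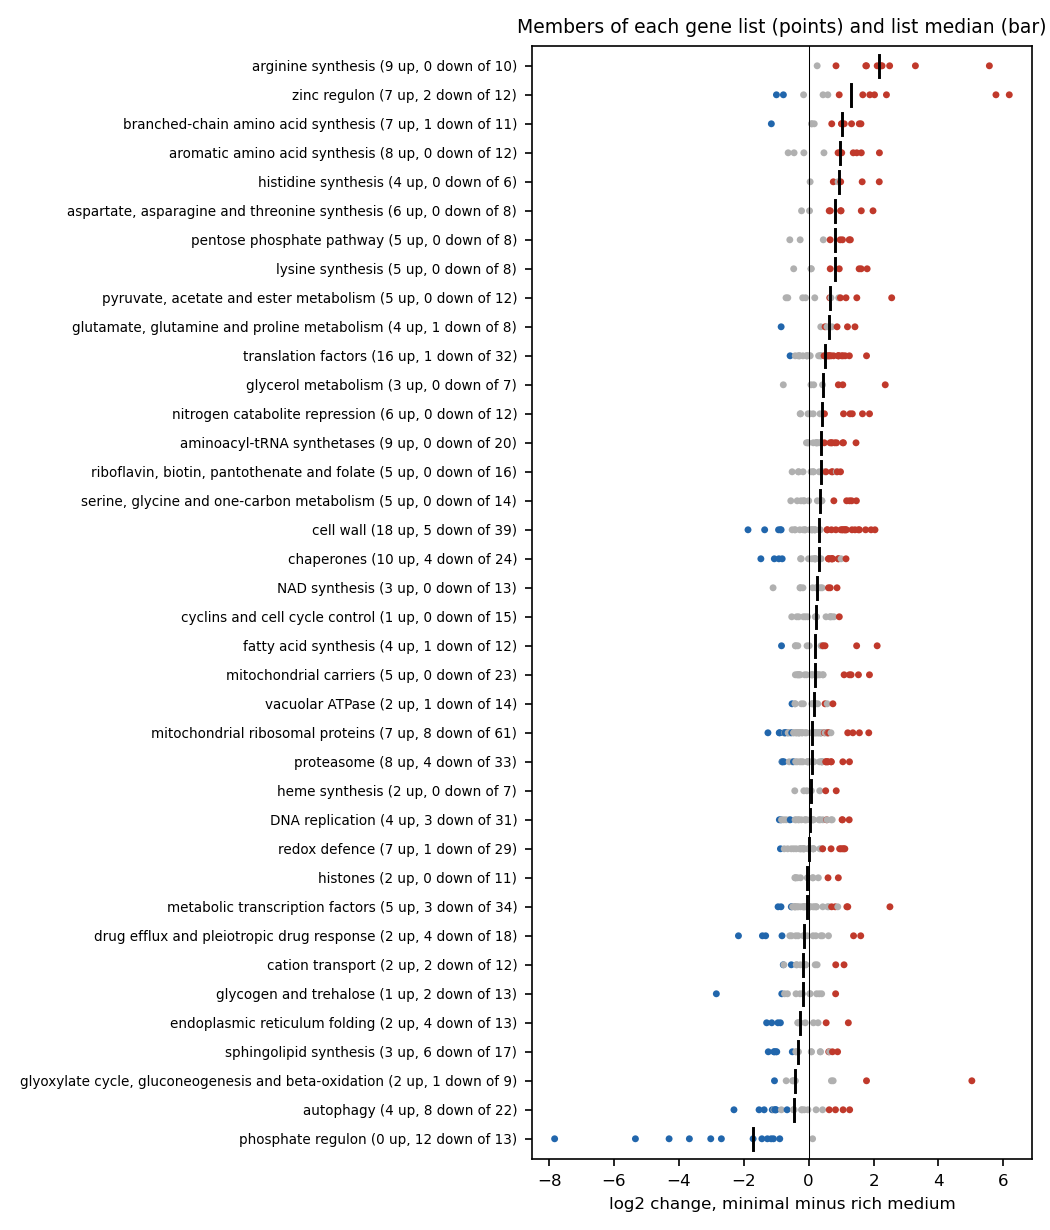
Each point is a tested member of one of 38 gene lists with at least 5 tested members, the mating-type and marker lists left out, placed by its log2 change, minimal minus rich medium (x axis). Red points were called higher, blue points lower and grey points neither, and the black bar is the median of the list. The arginine list stands at the top, with a median of 2.17, and the phosphate list at the bottom, with a median of -1.71.

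The core of the Gcn4 binding motif, TGACTC, was searched on both strands of the 500 bases before each start codon. It stood in 12.7% of 6018 coding genes, in 18.7% of the 823 higher coding genes and in 66 of the 657 lower ones. Of the 55 tested members of the arginine, histidine, lysine, branched-chain, aromatic and aspartate lists, 39 held it. Of the 32 called members of these lists that held it ARG1 changed most. The serine and glutamate lists were not part of this count. The core of the Pho4 motif, CACGTG, stood in 6.23% of all these windows, in 61 of the 823 higher and 46 of the 657 lower coding genes, and in 11 of 13 tested phosphate genes. The core of the Zap1 motif, CCTTNAAGG, stood in 0.831% of all windows and in 1 of the 9 called zinc genes, ZRT1. A match describes the letters only. The stretches below are from RefSeq's R64 genome, are read 5′ to 3′ towards the gene and show the motif in capitals. They are given for the called list member with the largest change that holds each motif: ARG1 (chrXV:218883-218982, plus strand), ZRT1 (chrVII:20724-20823, plus strand) and PHO84 (chrXIII:26169-26268, minus strand).
ARG1: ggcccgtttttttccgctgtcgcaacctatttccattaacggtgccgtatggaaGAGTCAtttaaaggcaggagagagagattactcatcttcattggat
ZRT1: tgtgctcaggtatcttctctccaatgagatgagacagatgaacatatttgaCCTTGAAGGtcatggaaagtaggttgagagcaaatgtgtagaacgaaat
PHO84: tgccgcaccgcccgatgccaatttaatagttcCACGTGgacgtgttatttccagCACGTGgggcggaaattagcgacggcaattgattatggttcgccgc
Counted from the start codon, these windows span positions -328 to -229, -254 to -155 and -468 to -369, in that order. The ARG1 stretch carries the Gcn4 core on the opposite strand, and the PHO84 stretch carries the Pho4 core, which reads the same on both strands, at both places in capitals.

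In the zinc list 7 of 12 tested genes rose (58.3%) and 2 fell (16.7%), with a median of 1.30. Over all tested genes 17.7% rose and 15.7% fell. ZRT1, the high-affinity zinc transporter, stood at 3560.2 and 3777 CPM in minimal medium and at 67.1 and 66.9 CPM in rich medium, and ZPS1, for a cell wall protein, at 473.7 and 634 CPM against 7.46 and 7.65 CPM. DPP1, for a diacylglycerol pyrophosphate phosphatase, and IZH2, for a membrane protein of zinc homeostasis, fell by 0.99 and 0.78, and neither was called without minimal medium replicate 2. In the phosphate list 12 of 13 tested genes fell and 0 rose (median -1.71), and DESeq2 called 10. PHO84, the high-affinity phosphate transporter, stood at 3.60 and 0 CPM in minimal medium and 468 and 367 CPM in rich medium. SPL2, a regulator of low-affinity phosphate uptake, had 2 reads over both minimal medium libraries and 141 over both rich medium libraries, a ratio of 45.02 with a 95% counting interval of 12.2 to 375. PHO8, for vacuolar alkaline phosphatase, was the 1 tested member not called, at 639 and 608 CPM against 589 and 557 CPM. Intervals and floors here cover counting error only.

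Besides SPL2, 2 genes had at most 3 reads over both libraries of one medium and at least 10 CPM in each library of the other. MDH2, for the cytosolic malate dehydrogenase of gluconeogenesis, had 27 reads in minimal and 1 in rich medium, a ratio of 42.3 (95% counting interval 6.97 to 1731). YJL213W had 1 read in minimal and 41 in rich medium, a ratio of 26.2 (4.44 to 1059). DESeq2, whose own filter can leave genes with few reads without an adjusted p, did not call MDH2 or YJL213W.

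Of 12 tested genes under nitrogen catabolite repression, which are held low while good nitrogen sources last, 6 rose and 0 fell (median 0.42). PUT4, the proline permease, stood at 80.9 and 61.4 CPM against 18.9 and 19.8 CPM, and GAP1, the general amino acid permease, at 106.1 and 105.7 CPM against 34.3 and 32.5 CPM. Another 9 members of this list were too low to be tested. The pentose phosphate list had 5 of 8 genes higher (median 0.82), led by the transketolase TKL1 (1.29) and the 6-phosphogluconate dehydrogenase GND1 (1.249). Of 7 glycerol genes 3 rose. GPD2, a glycerol-3-phosphate dehydrogenase, stood at 328 and 352 CPM against 63.2 and 69.5 CPM, a log2 change of 2.36 (SE 0.19, adjusted p = 4.64e-10). Of 12 pyruvate, acetate and ester genes 5 rose, led by EHT1 (2.56), for an ester-forming acyltransferase, and ADH1 (1.48).

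In lipid synthesis, FAS2, a subunit of fatty acid synthase, stood at 263 and 256 CPM against 53.7 and 66.9 CPM, a log2 change of 2.11, and ACC1, acetyl-CoA carboxylase, rose by 1.48. Of 12 fatty acid genes 4 rose (33.3%) and 1 fell (8.33%), the elongase ELO1 (-0.84). The count of rises was 2 with DESeq2, without either minimal medium library and with reads past the stop codon only. Of 17 sphingolipid genes 3 rose (17.6%) and 6 fell (35.3%), with a median of -0.32, and 1 rose without either minimal medium library. TSC3, an activator of serine palmitoyltransferase, stood at 297 and 299.3 CPM against 704 and 709 CPM. The ceramide synthase LAC1 fell by 1.07, and TSC10, for the next enzyme after the palmitoyltransferase, rose by 0.89.

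Of 23 mitochondrial carriers 5 rose (21.7%, against 17.7% over all tested genes), led by MIR1, the phosphate carrier (1.87), and GGC1, the GTP and GDP carrier (1.53). Of 16 genes for riboflavin, biotin, pantothenate and folate 5 rose, with ABZ1, for aminodeoxychorismate synthase, at 0.98, but 1 did so without either minimal medium library. In the NAD list 3 of 13 rose (23.1%), and 0 with DESeq2 or without either minimal medium library. In the glyoxylate, gluconeogenesis and beta-oxidation list 2 of 9 rose (22.2%), MDH2 and the citrate synthase CIT2 (1.78). FAA2, a fatty acyl-CoA synthetase, fell by 1.05. FAA2 was not called with DESeq2 or without either minimal medium library. The 3 tested genes of galactose, maltose and sucrose use were not called, and 9 others were too low to be tested.

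The glycogen phosphorylase GPH1 stood at 2.70 and 3.41 CPM in minimal medium and 24.4 and 20.4 CPM in rich medium. This was the largest fall in the glycogen and trehalose list, where 2 of 13 fell (15.4%) and 1 rose (7.69%). DESeq2 called neither fall. TPS1, for trehalose-6-phosphate synthase, rose by 0.83. Of 7 heme genes 2 rose (28.6%), HEM12 (0.85) and HEM1 (0.52), and without minimal medium replicate 2 the count was 0. The cation transport list had 2 genes higher and 2 lower of 12 (16.7% each), against 17.7% and 15.7% over all tested genes. Without minimal medium replicate 2 it had 0 in both directions.

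**Figure D3:**
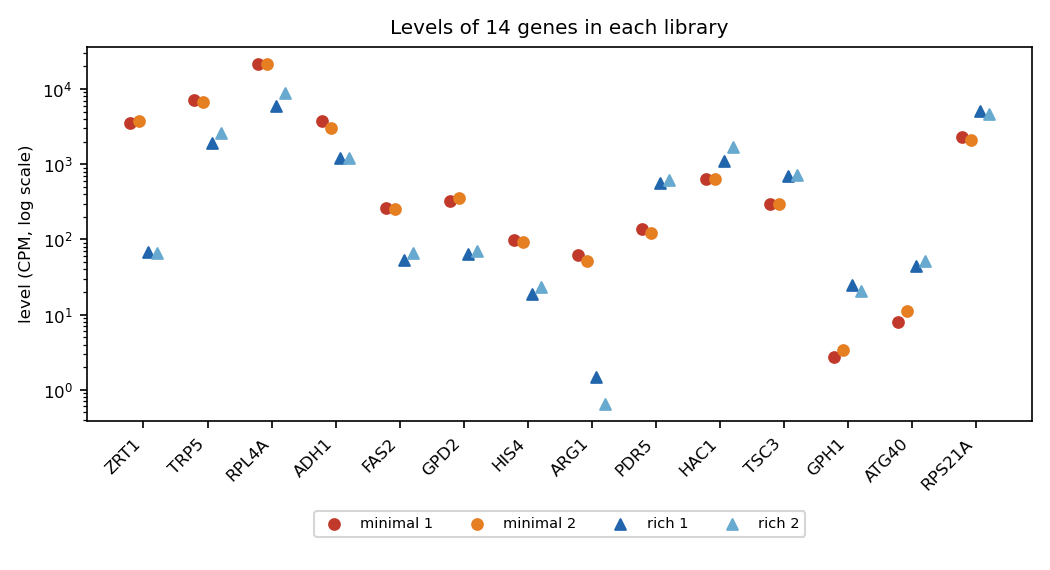
Levels of 14 genes named in the text, in CPM on a log scale, are shown for each library, with circles for the minimal and triangles for the rich medium libraries. For all 14 genes both libraries of one medium lie above both libraries of the other. The separation is widest for ZRT1 and ARG1 and narrower for genes such as RPS21A and TSC3.

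Genes of protein synthesis rose in part. Of 32 translation factors 16 rose and 1, SUI1, fell (median 0.50). TIF34, a subunit of the initiation factor eIF3, stood at 148.3 and 111.7 CPM against 42.8 and 31.9 CPM. EFT2, for elongation factor 2, stood at 832 and 879.9 CPM against 329 and 389.5 CPM, a log2 change of 1.254. Without minimal medium replicate 1 the count of rises was 6 and without replicate 2 it was 8. Of 20 aminoacyl-tRNA synthetases 9 rose and 0 fell, and 4 rose with DESeq2 or without either minimal medium library. DPS1, for aspartyl-tRNA synthetase, rose by 1.46 and FRS2, for a subunit of phenylalanyl-tRNA synthetase, by 1.07. Of 61 mitochondrial ribosomal protein genes 7 rose (11.5%) and 8 fell (13.1%), with a median of 0.10. Over all tested genes 17.7% rose and 15.7% fell. Without minimal medium replicate 1 the counts for this list were 3 and 2. MRP4 rose by 1.85 and MRPL32 fell by 1.26.

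Of 24 chaperones 10 rose (41.7%) and 4 fell (16.7%), against 17.7% and 15.7% over all tested genes. The chaperones that rose most were SSE1 (1.15), a nucleotide exchange factor, and SSB1 (0.92), an Hsp70 bound to ribosomes. Those that fell most were HSP104 (-1.47), the disaggregase, and SSA4 (-1.06), a heat-induced Hsp70. Only 4 rose and 1 fell with minimal medium replicate 1 left out, and 3 and 1 with replicate 2 left out. In the endoplasmic reticulum list 2 of 13 rose (15.4%) and 4 fell (30.8%). HAC1, for the transcription factor of the unfolded protein response, stood at 643 and 632 CPM against 1092 and 1716 CPM, and MPD1, a protein disulfide isomerase family member, fell by 1.30, while PDI1, the main protein disulfide isomerase, rose by 1.22. With minimal medium replicate 2 left out, 1 rose and 2 fell. Of 33 proteasome genes 8 rose (24.2%) and 4 fell (12.1%), against 17.7% and 15.7% over all tested genes. Leaving out minimal medium replicate 1 gave 1 and 0, and replicate 2 gave 1 and 1. RPN10, a ubiquitin receptor, rose by 1.26 and RPN7 fell by 0.80. The vacuolar ATPase list had 2 genes higher (14.3%) and 1 lower (7.14%) of 14, and 0 in both directions with DESeq2.

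Cell wall genes rose more often than they fell, 18 (46.2%) against 5 (12.8%) of 39 (median 0.32). SED1, a wall protein, stood at 648 and 667 CPM against 130.8 and 189.4 CPM, a log2 change of 2.04 (SE 0.19, adjusted p = 5.53e-09), and CWP1 rose by 1.92. FKS1, a glucan synthase subunit, was lower, with 14.4 and 11.1 CPM against 33.3 and 31.9 CPM, as was the mannoprotein TIR1, with 2.70 and 2.56 CPM against 7.96 and 12.1 CPM. Without minimal medium replicates 1 and 2 the counts of falls were 3 and 2. In the drug efflux list 4 of 18 fell (22.2%) and 2 rose (11.1%), against 15.7% and 17.7% over all tested genes. Without minimal medium replicate 2, 1 fell. PDR5, a multidrug ABC transporter, stood at 138.4 and 121.9 CPM against 557 and 611 CPM, a log2 change of -2.16 (SE 0.18, adjusted p = 1.09e-09). TPO2 and TPO3, polyamine exporters, rose by 1.60 and 1.38. RTA1, which fell by 1.43, kept its call in 3 of 10 alternative settings.

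Of 22 autophagy genes 8 fell (36.4%) and 4 rose (18.2%), with a median of -0.46, against 15.7% and 17.7% over all tested genes. ATG40, a receptor for autophagy of the endoplasmic reticulum, stood at 8.09 and 11.1 CPM against 43.8 and 52.3 CPM, and ATG18, a phosphoinositide-binding protein, rose by 1.26. DESeq2 called 1 fall and 1 rise. Leaving out minimal medium replicate 1 gave 3 falls and 2 rises, and replicate 2 gave 1 and 1. Of 29 redox genes 7 rose (24.1%), led by OYE2 (1.12) and DOT5 (1.08), and 1 fell (3.45%). Without minimal medium replicate 1 the count of rises was 4. Of 34 metabolic transcription factors 5 rose (14.7%) and 3 fell (8.82%), against 17.7% and 15.7% over all tested genes. OPI1, the repressor of phospholipid synthesis genes, stood at 8.09 and 8.53 CPM against 1.99 and 0.638 CPM, and AFT2, an iron regulator, fell by 0.94. Leaving out minimal medium replicate 1 gave 3 and 0 factors, and replicate 2 gave 1 and 1.

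Of 31 DNA replication genes 4 rose (12.9%) and 3 fell (9.68%), against 17.7% and 15.7% over all tested genes. The helicase subunit MCM7 rose by 1.04. When minimal medium replicate 1 was left out, 2 genes of this list were called higher and 0 lower. Of 11 histone genes 2 rose (18.2%), HHO1 (0.91) and HHT2 (0.60), and 0 did so without either minimal medium library. Of 15 cyclin and cell cycle genes 1 rose (6.67%), the cyclin PCL2 (0.94), which was not called with DESeq2 or without either minimal medium library. The 6 tested a-specific genes had log2 changes from -0.79 to -0.36, and 4 were called lower, with MFA1, for the a-factor precursor, at 133.0 and 129.6 CPM against 222 and 233 CPM. None of the 6 was called without minimal medium replicate 1 or 2, and DESeq2 called 1. Of 7 tested haploid-specific genes FUS3, a kinase of the mating pathway, rose by 1.04 (14.3% of the list called higher). NEJ1, a regulator of DNA end joining, and STE18, a G protein subunit, fell by 1.28 and 0.79 (28.6% called lower). Of 6 tested genes that are common auxotrophic markers 4 rose, among them URA3 (1.64) and HIS3 (1.65), and 2 did so with DESeq2 or without minimal medium replicate 2.

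Most tested tRNA and snoRNA genes were called lower in minimal medium, and edgeR called none higher. snoRNAs guide chemical modification of ribosomal RNA. Of 57 tested tRNA genes 43 were lower and 0 higher (median -1.26), and 56 had a log2 change below 0. Of 42 tested snoRNA genes 28 were lower and 0 higher (median -1.04), and all 42 changes were below 0. Over all tested genes 15.7% were called lower. DESeq2 called 19 tRNA and 11 snoRNA genes lower. Leaving out minimal medium replicate 1 gave 25 and 13, and replicate 2 gave 28 and 15.

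Few of these reads lay inside the RNA genes. In the 4 libraries between 0.430% and 1.02% of reads assigned to tRNA genes ended inside the gene, 19.2% to 22.4% ended 1 to 100 nt past it, 60.7% to 63.1% over 100 and up to 300 nt past it, and the rest further on. In CPM of the nuclear reads, those over 100 and up to 300 nt past the end came to 692 and 693 in minimal and 1477 and 1630.3 in rich medium. Of the reads assigned to tRNA genes 3.44% to 3.67% also lay in a coding gene or within 500 nt past its stop codon. For snoRNA genes 14.5% to 16.6% of reads ended inside the gene and 32.3% to 34.9% 1 to 100 nt past it. In CPM of the nuclear reads, both minimal medium libraries lay below both rich medium libraries in each of these stretches. As shares of the class, this held only for tRNA reads inside the gene and 1 to 100 nt past it. Those shares were 0.536% and 0.430% against 1.02% and 0.993%, and 19.2% and 20.1% against 22.2% and 22.4%. Over 300 and up to 500 nt past tRNA genes the shares went the other way, 18.1% and 17.3% against 16.1% and 13.6%. With only 100 nt past RNA genes counted, an alternative added after seeing the data, 15 of 17 tested tRNA genes and 16 of 23 snoRNA genes were lower and 0 were higher.

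The called tRNA gene with the largest fall in CPM was YNCJ0002C, a glutamate tRNA gene (chromosome X, 115939 to 116010), at 107.9 and 104.9 CPM against 215 and 237 CPM. YNCD0013C, an arginine tRNA gene (chromosome IV, 619969 to 620041), stood at 18.0 and 11.9 CPM against 56.7 and 86.1 CPM, a log2 change of -2.24 (SE 0.30, adjusted p = 2.29e-06). Among snoRNA genes SNR33 stood at 126.7 and 151.8 CPM against 313 and 294 CPM, and SNR61 at 20.7 and 20.5 CPM against 65.7 and 68.2 CPM. For all 4 of these genes the groups do not overlap, and the call was kept in 10 of 10 alternative settings. These 4 were named after their values were seen.

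Other places outside the 3′ regions of genes also held a smaller share of the reads in minimal medium. The 3′ region, 1 to 500 nt past a stop codon, held 95.7% and 95.6% of nuclear reads in minimal and 94.3% and 94.0% in rich medium. Intergenic positions held 1.93% and 1.92% against 2.69% and 2.74%, noncoding RNA genes 0.226% and 0.230% against 0.447% and 0.476%, and positions antisense to coding genes 0.607% and 0.5998% against 0.726% and 0.764%. Coding regions held 0.894% and 0.940% against 1.05% and 1.05% in their first 300 nt, and 0.664% and 0.672% against 0.838% and 0.933% further on. None of the 6 shares overlapped between media. An exact permutation test, two-sided, gave p = 0.333 for each, which is the lowest value possible with 2 libraries a group. Since these are shares of all reads, less of one kind of RNA and more of the other kinds cannot be told apart.

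**Figure D4:**
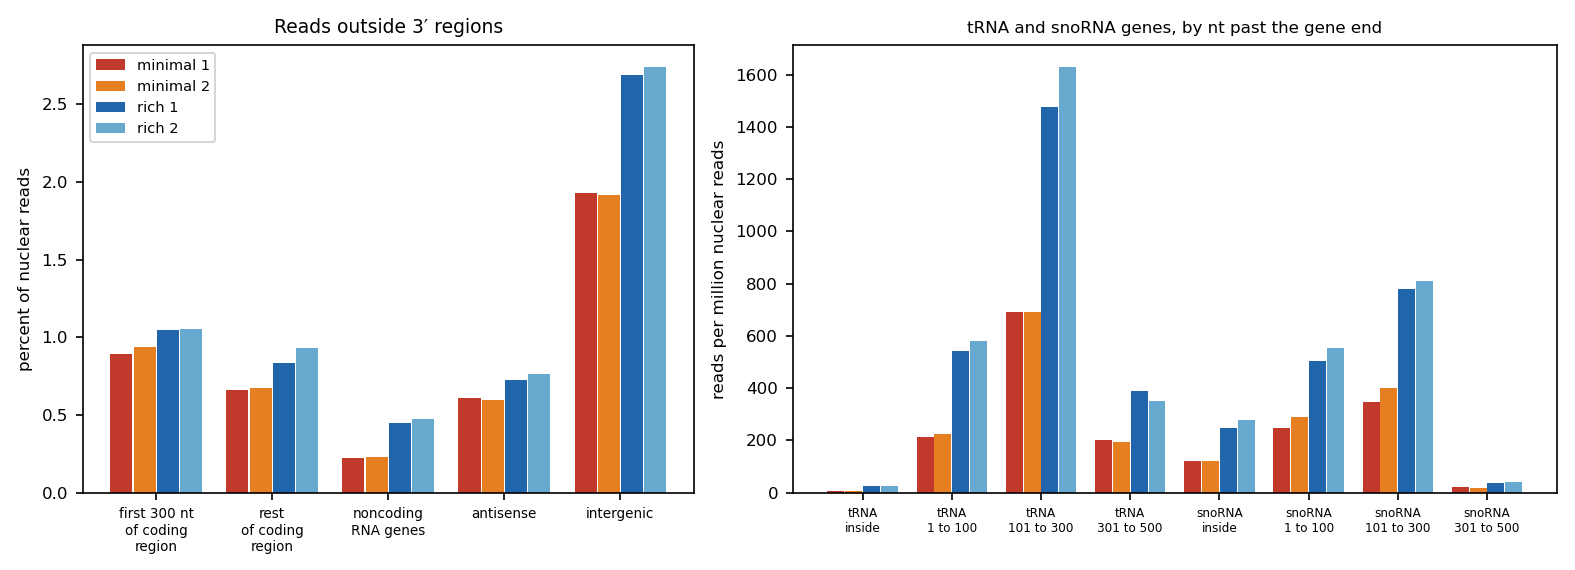
Bars on the left give the percent of nuclear reads outside 3′ regions in each library, by location, and bars on the right give CPM, out of the nuclear reads, assigned to tRNA and snoRNA genes, by distance past the gene end in nt. Red and orange bars are the minimal medium and blue bars the rich medium libraries. In every class both minimal medium bars are lower than both rich medium bars, as for intergenic reads with 1.93% and 1.92% against 2.69% and 2.74%.

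Joining positions within 24 nt gave 55651 cleavage sites, of which 7543 were tested, each on its own reads. In minimal medium 1094 sites were higher (14.5%) and 1041 lower (13.8%). Sites in 3′ regions were more often higher than lower, 1029 against 717 of 6431, and mostly had the same call as their gene. The reads of such a site are also part of its gene's total, so the 2 calls are not independent. Of the 1746 called sites in 3′ regions, 1566 belonged to a gene called the same way and 177 to a gene not called. Another 2 belonged to a gene not tested and 1 to a gene called the opposite way. That 1 site was in RPL31B, for a large subunit protein. Its sites 93 and 189 nt past the stop codon fell by 0.59 and 0.96, whereas the one 343 nt past it rose from 3.51 and 3.88 CPM to 8.13 and 11.96 CPM (adjusted p = 0.0316). DESeq2 called 422 sites higher and 340 lower, and leaving out minimal medium replicate 1 gave 486 and 307, or replicate 2, 523 and 334.

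Elsewhere falls outnumbered rises. Of 516 tested intergenic sites 166 were lower and 35 higher, of 174 antisense sites 44 and 12, of 113 sites in noncoding RNA genes 63 and 1, of 147 sites in the first 300 nt of coding regions 30 and 11, and of 162 sites further inside coding regions 21 and 6. The median log2 changes of these classes were -0.60, -0.44, -1.13, -0.17 and -0.46 in that order, against 0.06 in 3′ regions. Around start codons, the share of lower sites was 41.9% of 43 sites lying over 100 and up to 200 nt before a start codon on the same strand, 34.5% of 55 sites 1 to 100 nt before it and 23.1% of 91 sites in the first 50 nt of the coding region. It was 15.8% of 38 sites over 200 and up to 300 nt before it, 22.2% of 54 sites further up to 500 nt before it, 19.0% of 21 sites 50 to 99 nt inside and 8.33% of 24 sites from 100 to under 200 nt inside. The next 100 nt held 11 sites. These bins leave out all sites in the 3′ region of a coding gene or in noncoding RNA genes, and they were chosen after the values were seen. The bins before the start codon thus hold only intergenic and antisense sites. Of all tested sites, 32.2% of the intergenic, 25.3% of the antisense and 20.4% of those in the first 300 nt of coding regions were lower. Whether the bins differ from these shares was not tested.

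Several single sites outside 3′ regions were far lower in minimal medium. A site 115 nt before the start codon of MET3, for ATP sulfurylase (chromosome X, position 456124, plus strand), stood at 8.13 and 1.71 CPM in minimal and 30.6 and 45.3 CPM in rich medium. HTA2, for histone H2A, has a site 14 nt after the first base of its start codon that stood at 5.42 and 4.27 CPM against 40.1 and 44.6 CPM, while the gene as a whole was not called (-0.43). An intergenic site on the minus strand of chromosome III (position 224748), next to TAH1, stood at 4.52 and 2.56 CPM against 49.6 and 55.0 CPM. A site at position 567984 of chromosome VII, near the retrotransposon gene YGR038C-B, stood at 28.0 and 19.7 CPM against 180.9 and 203 CPM. Antisense to CTT1, the cytosolic catalase, a site stood at 2.71 and 2.56 CPM against 19.0 and 20.05 CPM.

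Some sites outside 3′ regions rose instead. Between ADH4 and ZRT1, on the minus strand, a site at position 18593 of chromosome VII had 131 reads over both minimal medium libraries and 1 over both rich medium libraries, a ratio of 195 (95% counting interval 34.4 to 7765). A neighbour at position 18136 had 47 reads and 0, which is at least 23.3-fold higher with a floor of 3 reads over the group. Within the 3′ region of ZRT1 itself, a minor site 150 nt past its stop codon had 70 reads and 0, at least 34.8-fold higher. Antisense to ODC1, for a mitochondrial oxodicarboxylate carrier, a site rose from 62.1 and 75.0 CPM to 165.4 and 182.0 CPM. GAT1, for a GATA activator of nitrogen genes, has its main site inside the coding region, 709 nt after the first base of the start codon. That site rose by 1.05 and the whole gene, whose total includes the site, by 1.07.

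The relative use of the 2 most used sites was tested in 2516 genes. In minimal medium 43 genes used the distal site more (1.71% of those tested) and 13 used the proximal site more (0.517%), with 352 at an unadjusted p under 0.05. DESeq2 called 13 and 3. When minimal medium replicate 1 was left out, edgeR called 0 and 0, although 171 genes reached that unadjusted level, and when replicate 2 was left out it called 2 and 0, with 192 reaching it. Leaving out rich medium replicate 1 gave 9 and 4, and replicate 2 gave 2 and 1. All 56 genes thus lost their call when minimal medium replicate 1 was left out.

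In 11 of the 43 genes the proximal site lay within 40 nt after the first base of the start codon, against 76 of all 2516 tested, 3.02%. In 5 more it lay further inside the coding region, and in 27 past the stop codon. Of the 13 genes with more proximal use 1 had such an early site, DYS1. Assignment to a gene begins at its start codon, so a group of positions that spans it may be cut there. Among the 11, the sites of SER3 and MDE1 were the first base of the start codon. For IMD2 more reads lay before the start codon than after it in rich medium, 39 and 20 against 12 and 8. For the rest of the 11 more lay after it in rich medium. Whether each of the 11 is a separate site inside the coding region was not tested. ODC2, the paralog of ODC1 (chromosome XV), had 95.1% and 91.0% of the reads of both sites at the distal one in minimal medium, against 32.6% and 45.6% in rich medium, a log2 change of the distal over proximal ratio of 4.34 (SE 0.45, adjusted p = 1.39e-18). Its early site, 16 nt into the gene, fell from 54.6 and 42.1 CPM to 4.52 and 8.54 CPM, while the gene as a whole was not called (0.43). This call was lost only without minimal medium replicate 1 among the 10 alternatives. YGP1, a secreted glycoprotein gene, had 78.5% and 84.5% against 42.8% and 48.4%.

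The letters at these early sites are shown because the cut falls within the first codons. Each stretch holds 30 bases of the R64 genome on the strand of the gene, ends at the cleavage position and has the start codon in capitals. The windows are chrXV:758317-758346 for ODC2, chrXIV:336536-336565 for YGP1, chrXIV:715365-715394 for LYS9 and chrVIII:232117-232146 for DYS1.
ODC2: gcatcaaagtaatATGtcatcagactcaaa
YGP1: taatagaaaATGaagttccaagttgtttta
LYS9: tttaatATGggaaagaacgttttgttgcta
DYS1: agtcaaagcaaaaaagATGtccgatatcaa
LYS9, for saccharopine dehydrogenase of lysine synthesis, had a distal share of 98.3% and 85.5% against 74.3% and 79.5%. DYS1, for deoxyhypusine synthase, went the other way, with 54.2% and 40.3% against 67.1% and 69.8%. LYS9 was chosen after its values were seen, and its call (adjusted p = 0.0471) was kept in 2 of 10 alternative settings.

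SER3 codes for a serine synthesis enzyme and is known to be held low by the noncoding transcript SRG1, which runs through its promoter when serine is at hand. The proximal site taken for SER3 is the first base of its start codon, where assignment to the gene begins. The distal site had 56.7% and 53.5% of the reads of both sites in minimal medium, against 13.8% and 8.64% in rich medium (log2 change 3.22, adjusted p = 4.72e-07). The site 194 nt past its stop codon rose from 6.51 and 4.53 CPM to 15.4 and 19.7 CPM, while the gene total was not called (-0.35). The call on site use was lost without either minimal medium library and without rich medium replicate 2. With a joining distance of 12 nt, where other positions form the pair, the change in site use of SER3 was -0.17.

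The proximal site lay further inside the coding region in DBP2, for an RNA helicase, and DEF1, for a factor in the degradation of RNA polymerase II. It stood 2125 and 192 nt after the first base of the start codon, counted along the genome with any intron included. DBP2 had distal shares of 97.98% and 95.9% in minimal and 90.2% and 88.8% in rich medium, and DEF1 had 70.8% and 87.2% against 40.4% and 36.5%. MAE1, the malic enzyme gene, has an early proximal site instead, 6 nt after the first base of the start codon. Of the reads of its 2 sites, 100% were distal in both minimal medium libraries and 75.0% and 87.5% in rich medium. The rich medium shares rest on 32 reads in each library. Past the stop codon the shifts were between sites of one 3′ region. MRN1, for an RNA-binding protein, had 82.5% and 82.9% against 53.1% and 30.9%, RPL40B, for ubiquitin fused to a ribosomal protein, 86.7% and 85.5% against 71.9% and 65.4%, and HTB2, for histone H2B, 35.0% and 41.8% against 19.4% and 21.9%. RPL15A, for a large subunit protein, had 37.9% and 27.9% against 8.78% and 15.1%, but its log2 change turned to -0.39 with a joining distance of 12 nt. LSR1, the U2 snRNA gene, had 32.8% and 42.4% at the position 330 nt past the gene, next to COQ21, against 5.797% and 8.14%.

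**Figure D5:**
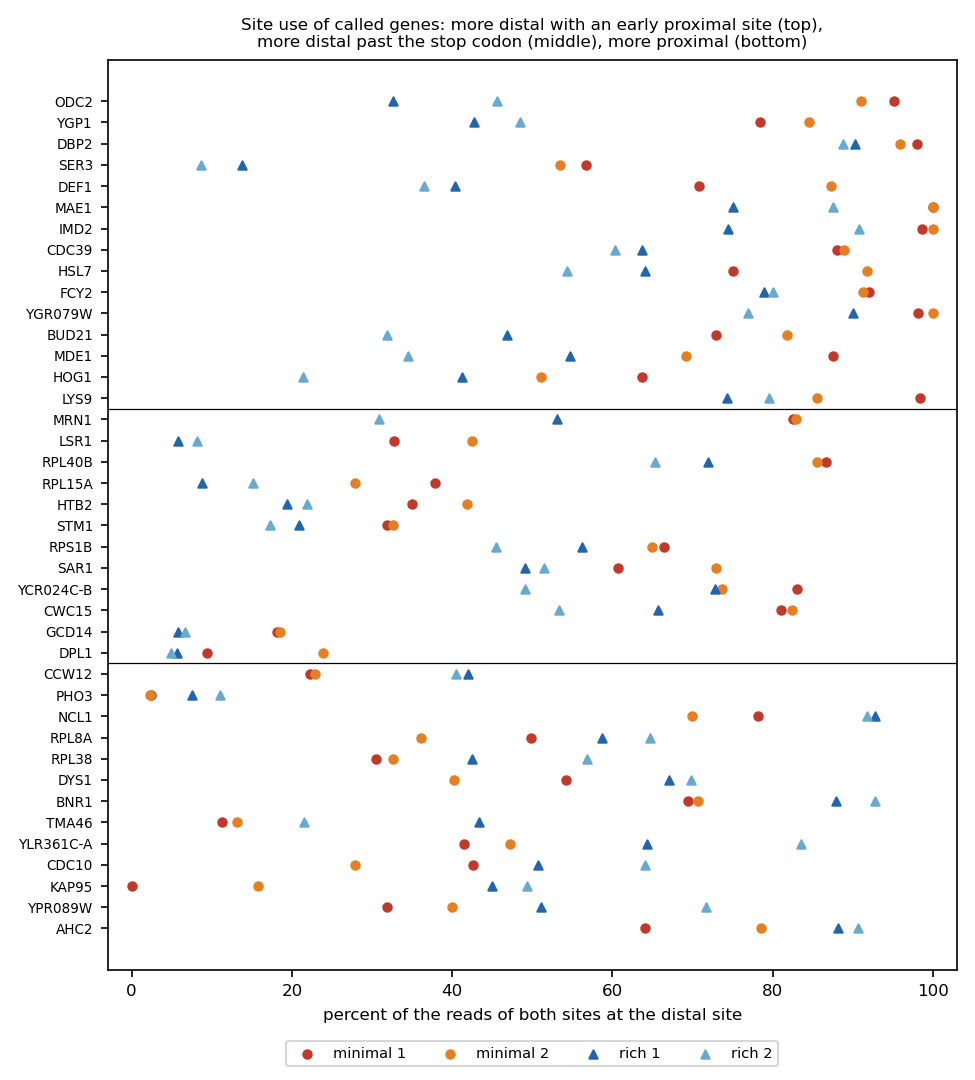
The x axis is the percent of the reads of both sites that end at the distal site, for 40 called genes, with 1 left out, with circles for the minimal and triangles for the rich medium libraries. The top block holds 15 genes with more distal use whose proximal site lies before the stop codon, the middle block 12 with both sites past it and the bottom block the 13 genes with more proximal use. In ODC2 the minimal medium libraries lie at 95.1% and 91.0% and the rich medium libraries at 32.6% and 45.6%.

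More proximal use was clearest in CCW12. Its sites lie 89 and 137 nt past the stop codon, and the distal share was 22.2% and 22.9% in minimal and 41.9% and 40.4% in rich medium (log2 change -1.26, SE 0.21, adjusted p = 9.77e-07), while the gene rose by 1.56. The call was lost without either minimal medium library. PHO3, an acid phosphatase gene, had 2.43% and 2.28% against 7.52% and 10.97%, and NCL1, a tRNA methyltransferase gene, 78.2% and 69.9% against 92.8% and 91.7%. RPL8A had 49.8% and 36.1% against 58.7% and 64.7%, and RPL38 30.6% and 32.6% against 42.5% and 56.9%.

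Over all genes the media differed less. In the 309 genes with the proximal site before the stop codon, the median distal share was 75.0% and 74.2% in minimal and 68.3% and 68.7% in rich medium. In the 2207 genes with both sites past the stop codon it was 41.9% and 41.9% against 41.3% and 40.2%. With 1178 genes thinned to 100 reads in every library, the mean number of distinct cleavage positions per gene was 13.2 and 13.3 in minimal and 13.1 and 13.2 in rich medium, a difference within the spread between replicates (exact permutation p = 0.667, two-sided, where 0.333 is the smallest possible).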

How the data were processed

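The deposited files hold counts: whole reads at single cleavage positions, by chromosome and strand, without a header or a recorded normalization. Bowtie2 (version not stated) and the assembly ASM294v2 are listed for all libraries per the submitters' processing notes. That assembly is of fission yeast, so the build for budding yeast is not given in the sources used here. Positions were checked against R64, where an A followed at most 0.646% of the well covered positions of a chromosome, and coordinates are given on R64.

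Same-strand reads were summed per gene from the start codon to 500 nt past the stop codon, and for RNA genes to 500 nt past the gene end. Counts were tested with edgeR 4.0.16 in R 4.3.3 (quasi-likelihood test, TMM scaling, filterByExpr, Benjamini-Hochberg threshold 0.05), with DESeq2 1.42.0 as an alternative. A gene or site that DESeq2's own filter on low counts left without an adjusted p was counted as not called. The scripts were tested on simulated counts. Positions within 24 nt of a more used one were joined into a site. Site use was tested as the change in the ratio of the distal to the proximal of the 2 most used sites, each holding 5% or more of all reads of its gene, in genes whose 2 sites together averaged 20 or more reads a library. Shares of reads and numbers of positions were compared by exact permutation.

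Genes were named by rule: the 12 largest rises and falls in CPM among called genes whose libraries do not overlap, up to 2 rises and 2 falls per list, genes with at most 3 reads in one medium and at least 10 CPM in the other, the 5 most changed sites per location and direction, and the 12 smallest adjusted p per direction of site use. The members and the 43 lists were chosen with earlier results of these data known. Same-numbered libraries did not deviate together (r = 0.0887 across genes), so replicate numbers were not taken as pairs. Depth was 1174191 to 2057269 reads per library. The site use of 1 gene is not reported here.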

Additional observations from a re-analysis of the deposited data

How the results depend on the processing

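Leaving out one library gave 410 to 982 higher and 276 to 916 lower genes, 486 to 1290 higher and 307 to 1320 lower sites, 0 to 9 genes with more distal and 0 to 4 with more proximal use, and 25 to 39 tRNA and 13 to 26 snoRNA genes lower. For site use at 0 edgeR calls, 171 genes had an unadjusted p under 0.05. DESeq2 gave 469 and 344 genes, 422 and 340 sites, 13 and 3 genes for site use, and 19 tRNA and 11 snoRNA genes. Without a filter on low counts 549 sites were higher. With the replicate block, 903 genes were higher and 805 lower, 1353 and 1299 sites, and 56 and 20 genes changed site use. Joining within 12 nt left 9 and 5 site use calls, joining within 48 nt 25 and 7, and a mean of at least 50 reads 18 and 6. Counting 100 nt past RNA genes, chosen after seeing the data, left 15 tRNA and 16 snoRNA genes lower, with fewer genes tested. The difference in the share of 3′ region reads was 1.67 percentage points with 300 nt past the stop codon and 1.69 without YHB1 reads, that of intergenic reads -0.94 and -0.8818, and that of noncoding RNA genes -0.26 without YHB1 reads. Log2 changes in site use turned sign with 12 nt joining for SER3 (-0.17), RPL15A (-0.39), CDC39 (-0.08126), YGR079W (-0.47) and EMC5 (-0.93), and with 48 nt joining for MDE1 (-2.783). The cause was not tested. Of 134 named genes, 77 were called the same way under every setting with a value. Depth limits genes and sites near 10 CPM, which rest on few reads.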
